A study of Rattus norvegicus with 6 samples.

Results

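The genes of iron handling and ferroptosis were followed from the sham to the myocardial ischemia/reperfusion injury (MI/RI) myocardium of the rat. The 10 genes were picked by symbol, with earlier results of these data known. They were Hmox1, Fth1, Ftl1, Tfrc, Slc40a1 and Hamp for iron, and Gpx4, Acsl4, Slc7a11 and Slc3a2 for ferroptosis. Of these, 9 were found among the 28293 genes of the table, and 8 passed the filter of a mean of at least 0.5 FPKM over the 6 samples, which 10942 genes passed. FPKM count sequenced fragments after division by gene length and by library size. No row carried the symbol Slc40a1, the iron exporter ferroportin, which was therefore not analysed here.

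The 2 groups held 3 samples each of male, wild-type rat myocardium. In the MI/RI group (I/R in the labels), the left anterior descending coronary artery was tied off for 30 min and released for 6 h before the heart was collected. The sham labels carry the same times. The labels number the samples within a group without saying whether each is a single animal, so each p-value measures the spread between these samples.

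Free iron can drive the peroxidation of membrane lipids, and ferroptosis is the form of cell death that follows when this peroxidation is not held back. Cells take up iron with the transferrin receptor, keep it in ferritin, release it from heme with heme oxygenase and export it through ferroportin, which the hormone hepcidin removes from the membrane. GPX4 reduces lipid peroxides at the expense of glutathione, whose cysteine enters through the cystine carrier made of SLC7A11 and SLC3A2, while ACSL4 loads membranes with the lipids that are oxidised. The heart, rich in mitochondria and heme, is a tissue in which iron released during reperfusion has long been studied.

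Most of the transcripts followed took a larger share of the library after MI/RI. Of the 8 genes tested, 6 rose in the MI/RI group (Hmox1, Hamp, Slc3a2, Tfrc, Gpx4 and, other than under quantile normalization where its sign turned, Fth1) and 0 fell, against a background of 25.5% of all genes called higher, 7.36% called lower and 32.9% called in either direction. In 7 of the 8 every MI/RI sample lay above every sham sample, an order that 37.2% of all genes showed, and in 0 of the 8 below (13.0% of all genes). The count rests on the scaling: 2 of the 8 were called higher under quantile normalization and 1, Hmox1, when the values were rescaled without the mitochondrial mRNAs. The background moved as well: of all 10942 genes, 1441 were higher and 1559 lower under quantile normalization. Without the mitochondrial mRNAs, 793 were higher and 2857 lower. Ftl1 did not pass the test and changed sign under 2 of the scalings, Acsl4 overlapped between the groups, and Slc7a11 was listed at or near 0. Calls are from limma on log2(FPKM + 0.1) with Benjamini-Hochberg adjustment over all genes tested and a threshold of 0.05, and each of the 8 genes had a mean above 0.5 FPKM in both groups. The median log2 fold change was 1.12 for the 8 genes and 0.29 for all genes.

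Several properties of the libraries moved with the groups. The 13 mitochondrial mRNAs held 80.1 to 86.2% of a sham library's summed FPKM and 61.8 to 71.5% of an MI/RI library's, and FPKM are shares of a library. Rescaling the values without these mRNAs shifted the median of all genes from 0.29 to -0.46, so log2 fold changes are also given here relative to the median of all genes. Of 7 cardiomyocyte markers, 6 had a row and 5 of these rose, with a summed level of 3086 to 9779 FPKM in sham and 17911.5 to 23421 FPKM in MI/RI. The highest sham sum was that of replicate 1, and the other two sham samples were at 3455 and 3086 FPKM. Neutrophil and monocyte markers summed to 50.5 to 65.7 FPKM in sham and 74.2 to 142 FPKM in MI/RI, with 2 of 3 called higher among those with a mean of at least 0.5 FPKM in both groups, and macrophage markers to 37.7 to 43.4 and 55.7 to 69.5 FPKM, with 2 of 7 higher and 1 lower. Fibroblast, endothelial and red cell marker sums overlapped or lay close, at 420 to 581, 121 to 173 and 1132 to 1263 FPKM in sham and 605 to 669, 139 to 176 and 606 to 1753 FPKM in MI/RI, with 2 of 7, 0 of 6 and 0 of 4 called higher and 0 lower. These calls also moved with the scaling. In the same order, 2, 5 and 2 were lower under quantile normalization, and 2, 3 and 2 without the mitochondrial mRNAs, with 0 higher. Of all 10942 genes, 1559 and 2857 were lower under these scalings. No marker with a row was at 0 in every sample. The part of these differences in the results below was not tested, and in bulk tissue fewer cells of a type and less RNA per cell cannot be told apart.

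Hmox1 encodes heme oxygenase 1, the inducible enzyme that opens the heme ring and frees its iron. It was measured at 4.50, 3.97 and 3.02 FPKM in sham samples 1, 2 and 3, and MI/RI samples 1, 2 and 3 held 13.5, 23.9 and 25.03 FPKM. The groups did not overlap, and MI/RI replicate 1 was the lowest of its group. The means were 3.83 ± 0.751 and 20.8 ± 6.33 FPKM (SD, n = 3 per group), a log2 fold change of 2.38 with a standard error of 0.29 (limma, adjusted p = 0.00159). Only 1.65% of the genes tested had a larger log2 fold change. Relative to the median of all genes the log2 difference was 2.09, and it was 2.07 without the mitochondrial mRNAs. Its rank by FPKM within a library, which no rescaling of a library can change, moved from place 3480 to 4682 in sham to place 1035 to 2156 in MI/RI. Hmox1 was called in 17 of 17 alternative fits, with log2 fold changes of 1.60 to 2.66.

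The constitutive heme oxygenase gene Hmox2 served as its partner within each library. It was measured at 6.32, 5.32 and 4.77 FPKM in sham and at 18.4, 10.01 and 8.83 FPKM in MI/RI, and rose by 1.10 on the log2 scale (SE 0.30, limma, adjusted p = 0.0197), a call lost without sham replicate 2 or 3 (log2 fold change 0.78 to 1.30 over the fits that leave out a sample), under quantile normalization and without the mitochondrial mRNAs. There were 0.713, 0.746 and 0.634 Hmox1 FPKM per Hmox2 FPKM in sham, and 0.737, 2.38 and 2.84 in MI/RI. MI/RI replicate 1, where Hmox2 was at its highest, lay inside the sham range of this ratio and the other two samples lay above it. The mean log2 ratio was 1.28 higher in MI/RI, with p = 0.2 in a two-sided exact permutation test and 0.3 after adjustment over the 3 ratios computed.

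**Figure D1:**
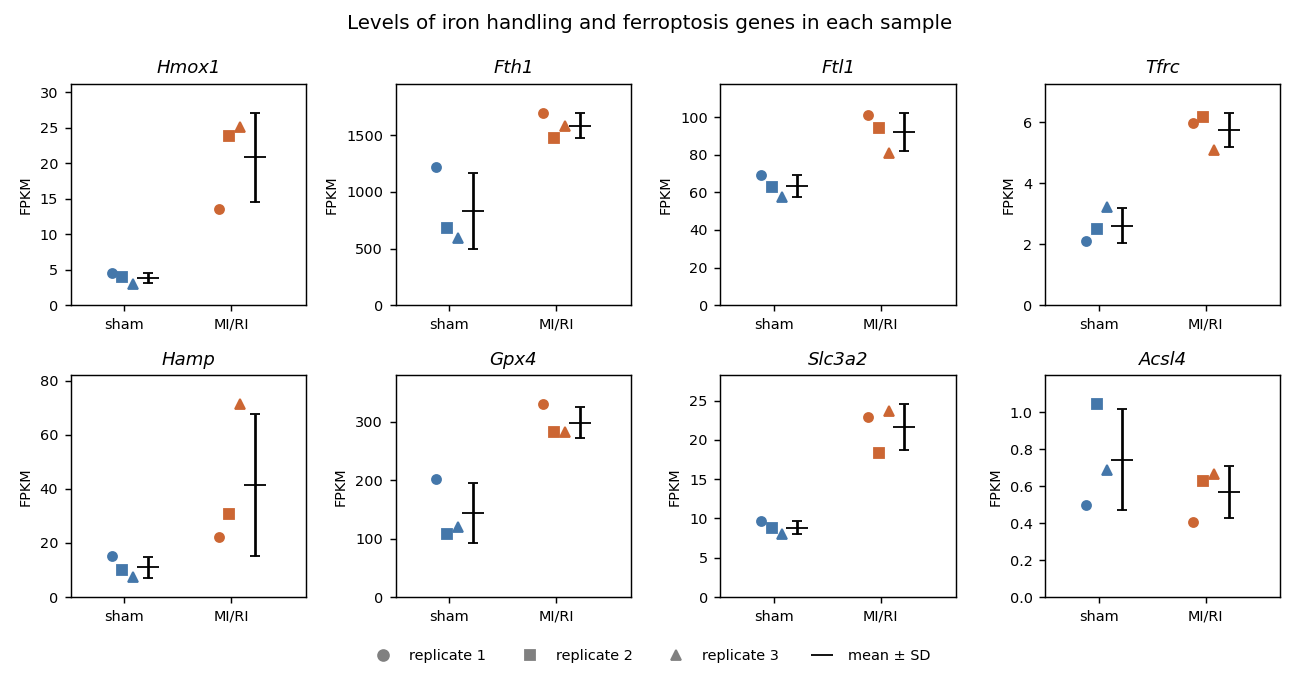
FPKM of the 8 tested genes in each sham (blue) and MI/RI (orange) sample, with the marker shape giving the replicate number and the black bar the mean ± SD of 3 samples; each panel has its own linear axis starting at 0. The MI/RI samples lie above all sham samples in 7 panels, while Acsl4 overlaps; under quantile normalization the differences of Fth1 and Ftl1 have the opposite sign, and without the mitochondrial mRNAs that of Ftl1 does.

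Ferritin, the iron store, is built of heavy chains (Fth1), which oxidise the iron that enters, and light chains (Ftl1), which help to lay it down as a mineral core. Fth1 was the most abundant of the genes followed, at 1216, 678 and 594 FPKM in sham and 1700, 1475 and 1581 FPKM in MI/RI. Every MI/RI sample was above every sham sample, and sham replicate 1 lay nearer to the MI/RI samples than to the other sham samples. The log2 fold change was 1.01 with a standard error of 0.31 (limma, adjusted p = 0.0326), or 0.71 above the median of all genes. This call was lost when any sample other than sham replicate 1 was left out, with log2 fold changes of 0.80 to 1.06 and adjusted p from 0.0688 to 0.144, and the change was 1.32 without sham replicate 1. It was also lost with no filter (adjusted p = 0.123), under median centring (0.76, adjusted p = 0.139) and without the mitochondrial mRNAs (0.22, adjusted p = 0.561), and the sign turned under quantile normalization (-0.41, adjusted p = 0.0575). By rank, Fth1 was place 28 to 30 in the sham libraries and place 32 to 35 in the MI/RI libraries, so its position among the most abundant transcripts moved by a few places downward while its FPKM went up.

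Ftl1 was measured at 69.2, 62.7 and 57.6 FPKM in sham and 101, 94.2 and 81.0 FPKM in MI/RI, summed over 3 rows of which 1 held 99.7% of the signal. The groups did not overlap, but the log2 fold change of 0.54 (SE 0.22, 95% interval 0.04 to 1.04) missed the threshold in limma with an adjusted p of 0.0889. Its sign turned under quantile normalization (-0.51) and without the mitochondrial mRNAs (-0.24), and it passed the test as TPM, FPKM rescaled to a common total (0.74, adjusted p = 0.0470). Per length, the heavy chain was at a higher level than the light chain in every sample. There were 17.6, 10.8 and 10.3 Fth1 FPKM per Ftl1 FPKM in sham and 16.8, 15.7 and 19.5 in MI/RI, where sham replicate 1 fell within the MI/RI range. The mean log2 ratio differed by 0.46 (exact permutation test, two-sided p = 0.3, adjusted 0.3). Both ferritin genes have many processed copies in mammalian genomes, and reads shared with such copies make their levels uncertain.

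Tfrc encodes the transferrin receptor, through which cells take up iron bound to transferrin. It was measured at 2.10, 2.50 and 3.22 FPKM in sham and at 5.99, 6.16 and 5.10 FPKM in MI/RI. The lowest MI/RI sample was above the highest sham sample, and the spread was alike in the groups (2.61 ± 0.570 and 5.75 ± 0.571 FPKM, SD, n = 3). Tfrc rose by 1.13 on the log2 scale (SE 0.23, limma, adjusted p = 0.00743), or 0.84 above the median of all genes, and the call held in 15 of 16 alternatives. The exception was the rescaling without mitochondrial mRNAs, with a log2 fold change of 0.36 (adjusted p = 0.373). Cells commonly regulate the transferrin receptor and ferritin in opposite directions through the iron regulatory proteins. FPKM measure RNA and show neither the protein levels nor the activity of these regulators, so this regulation was not tested. The FPKM of Tfrc and Fth1 were both higher in MI/RI, with Fth1 on the other side of 0 under quantile normalization. The genes of the iron regulatory proteins, named here after their values were seen, did not pass the test: Aco1 had a log2 fold change of 0.50 (SE 0.27, limma, adjusted p = 0.168) and Ireb2 one of -0.25 (SE 0.26, limma, adjusted p = 0.491).

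Hamp encodes hepcidin, the hormone that blocks iron export. It was measured at 15.3, 10.1 and 7.56 FPKM in sham and at 22.3, 30.6 and 71.2 FPKM in MI/RI. All MI/RI samples were above all sham samples, and replicate 3 stood far above the other two, which set the wide SD of the MI/RI mean (41.4 ± 26.2 FPKM against 10.98 ± 3.97 FPKM in sham, n = 3). Hamp rose by 1.78 on the log2 scale (SE 0.42, limma, adjusted p = 0.0120), or 1.49 above the median of all genes. Without MI/RI replicate 3 the log2 fold change was 1.30 (adjusted p = 0.0232). The call was lost without sham replicate 2 (1.75, adjusted p = 0.0540), without the mitochondrial mRNAs (1.004, adjusted p = 0.0526) and under quantile normalization (1.02, adjusted p = 0.135).

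The promoters of Hamp and Tfrc are shown because both genes rose and because genes of the BMP and interleukin 6 signals that act on Hamp were among those measured. The sequences are the 250 bases before the transcription start in RefSeq on build GRCr8, both on the minus strand and written 5′ to 3′ along the gene, at chr1:95300272-95300521 for Hamp and chr11:81690319-81690568 for Tfrc. Capitals mark GGCGCC, the BMP response element, and TTCNNNGAA, the STAT element, in Hamp, and GGCGCC and ACGTG, the core of the hypoxia response element, in Tfrc. No motif overlaps another in these windows.
Hamp: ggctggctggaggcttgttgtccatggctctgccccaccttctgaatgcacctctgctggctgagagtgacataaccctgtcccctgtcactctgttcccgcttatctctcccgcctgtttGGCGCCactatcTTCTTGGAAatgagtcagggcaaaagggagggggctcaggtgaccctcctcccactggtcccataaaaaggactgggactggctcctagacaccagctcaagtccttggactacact
Tfrc: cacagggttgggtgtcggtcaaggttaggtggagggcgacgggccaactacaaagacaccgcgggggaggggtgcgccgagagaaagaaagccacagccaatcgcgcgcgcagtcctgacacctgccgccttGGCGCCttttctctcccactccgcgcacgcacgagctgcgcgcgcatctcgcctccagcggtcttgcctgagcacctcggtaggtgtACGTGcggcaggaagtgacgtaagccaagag
GGCGCC lies at -129 and TTCTTGGAA at -117 of the Hamp start, and GGCGCC lies at -118 and ACGTG at -31 of the Tfrc start. These letters were searched on both strands after the sequences had been seen. They are held by 8.7% (GGCGCC), 7.7% (TTCNNNGAA) and 16.6% (ACGTG) of the 33469 promoters of the table, counted over the 250 bases before the start. In the Slc3a2 promoter ACGTG was found on the opposite strand at -188 and -105. A match describes the letters only.

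The genes upstream of Hamp formed a list of 9, of which 6 had a mean of at least 0.5 FPKM in both groups. Of these 3 were higher and 1 was lower, with a median log2 fold change of 0.67, beside 25.5% and 7.36% of all genes called. Without the mitochondrial mRNAs 1 of all 7 tested was higher and 1 lower, beside 793 and 2857 of all 10942 genes, and the higher one was Il6. Il6, the cytokine that induces hepcidin in inflammation, was at 0.0290, 0 and 0 FPKM in sham and at 5.12, 6.12 and 8.60 FPKM in MI/RI. It passed the filter on the strength of the MI/RI samples alone and is left out of the count. Stat3, the transcription factor that carries the interleukin 6 signal, rose from 5.33 ± 0.840 to 13.9 ± 1.43 FPKM (log2 fold change 1.37, SE 0.22, limma, adjusted p = 0.00367), a call lost only without the mitochondrial mRNAs among 17 alternatives (0.59). Hjv, the BMP co-receptor hemojuvelin, was at 11.8, 9.17 and 8.45 FPKM in sham and 45.4, 16.02 and 15.3 FPKM in MI/RI (log2 fold change 1.19, SE 0.39, limma, adjusted p = 0.0421), and kept its call in 8 of 17 alternatives. It lost the call without MI/RI replicate 1, which held its highest value, and without any one of the 3 sham samples (0.68 to 1.47 over the fits that leave out a sample). Hfe, an iron-sensing partner of the transferrin receptor, fell from 1.41 ± 0.283 to 0.533 ± 0.325 FPKM (log2 fold change -1.37, SE 0.39, limma, adjusted p = 0.0253). The Hfe call was lost when sham replicate 2 or 3 or MI/RI replicate 2 or 3 was left out, with log2 fold changes of -1.76 to -1.01, and with no filter.

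GPX4, glutathione peroxidase 4, is the selenoprotein that turns lipid hydroperoxides in membranes into harmless alcohols. Gpx4 was measured at 202, 107 and 120 FPKM in sham and at 330, 283 and 283 FPKM in MI/RI. The groups did not overlap, and sham replicate 1 was again the sham sample nearest to MI/RI. The means were 143 ± 51.3 and 299 ± 26.9 FPKM (SD, n = 3), with a log2 fold change of 1.11 (SE 0.28, limma, adjusted p = 0.0162), or 0.82 above the median of all genes. The change was 1.39 without sham replicate 1 and lost its call without sham replicate 2 (0.93, adjusted p = 0.0747) or replicate 3 (1.01, adjusted p = 0.0665). It was not called under median centring (0.86, adjusted p = 0.0686), without the mitochondrial mRNAs (0.33, adjusted p = 0.312) or under quantile normalization (0.12, adjusted p = 0.633). Within the libraries Gpx4 held place 142 to 182 in sham and place 137 to 149 in MI/RI, so the ranks of the groups overlapped.

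Acsl4, which activates arachidonic and adrenic acid for incorporation into phospholipids, was the gene of lowest level among those tested. It was at 0.501, 1.04 and 0.689 FPKM in sham and at 0.405, 0.628 and 0.666 FPKM in MI/RI, with overlapping groups. The log2 fold change was -0.31 with a 95% interval of -1.13 to 0.50 (limma, adjusted p = 0.534), an interval that leaves room for a change in either direction, and 0 of 16 alternatives called it. The log2 of Acsl4 over Gpx4 was -8.40, -6.56 and -7.26 in sham and -9.35, -8.60 and -8.53 in MI/RI. Every MI/RI sample was below every sham sample in this ratio, with a mean difference of -1.43. The two-sided exact permutation test gave p = 0.1, the smallest that 3 against 3 samples allow, and 0.3 after adjustment over the 3 ratios.

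**Figure D2:**
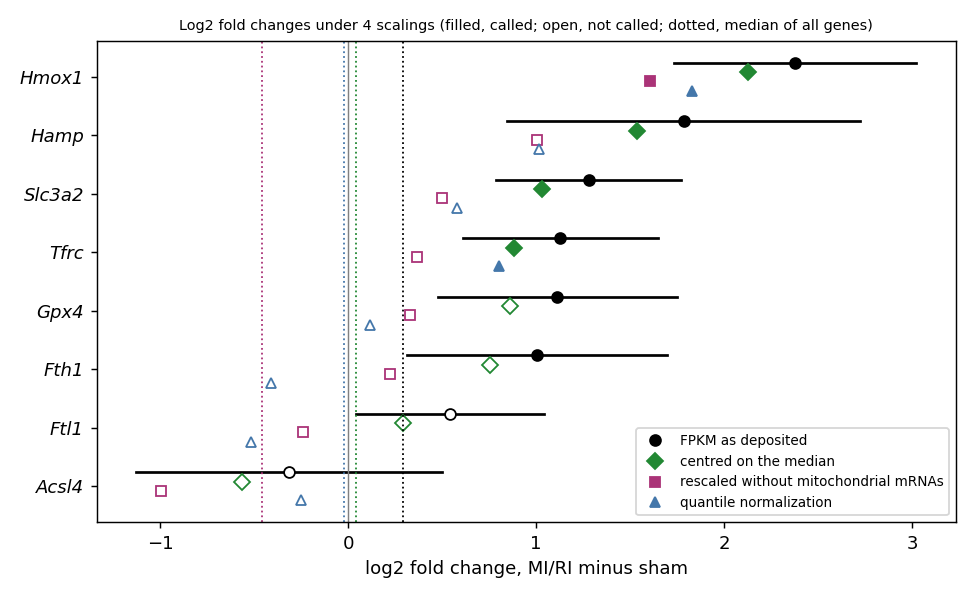
Log2 fold change, MI/RI minus sham, of the 8 tested genes with the FPKM as deposited (circles, with 95% intervals) and after 3 other scalings, filled where limma called the gene and open where it did not; dotted lines give the median of all genes under each scaling. Hmox1 is filled under all 4 scalings, Fth1 lies on the other side of 0 under quantile normalization, and Ftl1 does so there and without the mitochondrial mRNAs.

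The 2 subunits of the cystine carrier were listed at very different values. Slc7a11, the light chain that gives the carrier its selectivity, was listed at 0 FPKM in 5 libraries and at 0.00602 FPKM in MI/RI replicate 1, so it was not tested and no fold was computed. A listed 0 need not mean that a transcript is missing: Ncoa4, the widely expressed receptor that takes ferritin to the lysosome, named here after its values were seen, was listed at 0.0146 to 0.0176 FPKM in sham and at 0 in all 3 MI/RI samples. Slc3a2, the heavy chain (CD98hc) that brings this and other light chains to the membrane, was at 9.62, 8.81 and 7.99 FPKM in sham and at 22.9, 18.3 and 23.6 FPKM in MI/RI. The groups lay far apart for their spread (8.81 ± 0.817 and 21.6 ± 2.91 FPKM, SD, n = 3). Slc3a2 rose by 1.28 on the log2 scale (SE 0.22, limma, adjusted p = 0.00425), or 0.99 above the median of all genes, and kept its call whichever sample was left out (1.21 to 1.40). The call was lost without the mitochondrial mRNAs (0.50, adjusted p = 0.129) and under quantile normalization (0.58, adjusted p = 0.0541).

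Part of the Slc3a2 promoter is shown because it holds the core of the antioxidant response element, TGACNNNGC, the motif through which NRF2 acts on many genes of cystine and glutathione supply. It lies at chr1:215039671-215039770 on the minus strand (RefSeq, GRCr8), the 100 bases before the second of 2 listed starts, with the match on the opposite strand in capitals.
Slc3a2: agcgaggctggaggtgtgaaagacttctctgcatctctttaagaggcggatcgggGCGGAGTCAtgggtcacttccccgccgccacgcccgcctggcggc
The match begins at -45, and TGACNNNGC on either strand is held by 10.1% of the 33469 promoters. Of the 10 genes, 7 had a promoter in the table. The letters CAGTGN, the loop of the iron responsive element, were searched on the sense strand in the 50 bases after the start and were found in Slc7a11 among these genes and in 7.3% of all promoters. The entries searched do not include Hmox1, Fth1 or Ftl1. The rest of each transcript was not searched, so a missing match does not show that a gene lacks the element. The match in Slc7a11 describes the letters only.

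Since Slc3a2 serves several carriers, its other light chains were added to the lists after the values of Slc3a2 and Slc7a11 had been seen. Slc7a5, the light chain of the leucine carrier LAT1, was at 0.329, 0.220 and 0.314 FPKM in sham and at 2.18, 3.77 and 3.63 FPKM in MI/RI. It passed the filter through its MI/RI values alone, so no test of it is given. Slc7a6, the light chain of y+LAT2, which exchanges basic for neutral amino acids, went the other way, from 8.12, 16.3 and 11.4 FPKM in sham to 2.40, 4.10 and 3.76 FPKM in MI/RI. It fell by 1.75 on the log2 scale (SE 0.31, limma, adjusted p = 0.00448). Slc7a7, the light chain of y+LAT1, fell from 1.93, 1.74 and 1.46 FPKM to 0.526, 0.614 and 0.951 FPKM, by 1.21 on the log2 scale (SE 0.29, limma, adjusted p = 0.0124). The calls of Slc7a6 and Slc7a7 held in all 17 and 16 alternatives that tested them. Slc7a8, the light chain of LAT2, was at 0.895 to 1.38 FPKM in sham and 0.424 to 0.859 FPKM in MI/RI without passing the test (limma, adjusted p = 0.102), and Slc7a10 stayed under the filter. In sham, Slc7a6 was the most abundant of these light chains in every sample, while in MI/RI it and Slc7a5 were at similar levels in each sample.

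**Figure D3:**
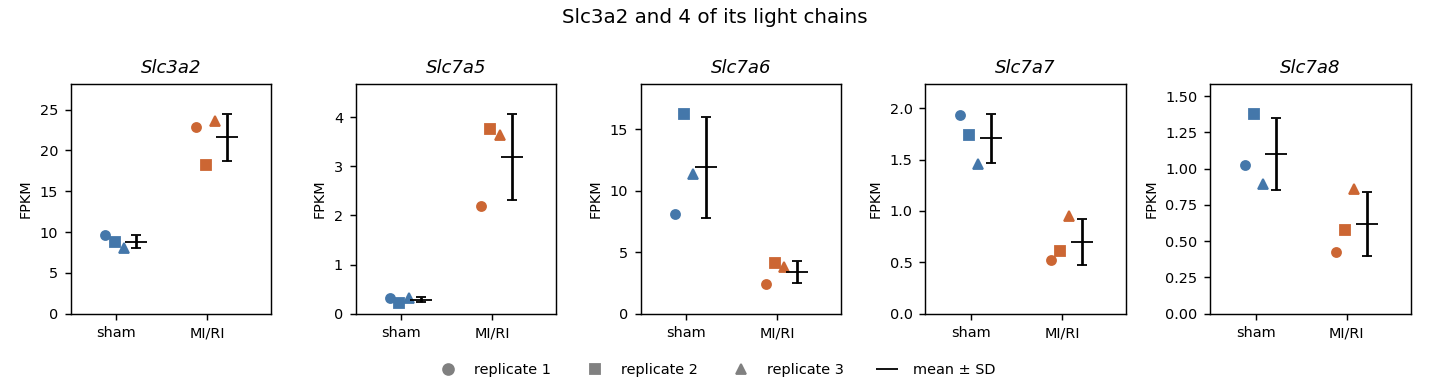
FPKM of the heavy chain Slc3a2 and of 4 of its light chains in each sham (blue) and MI/RI (orange) sample, with the mean ± SD of 3 samples in black and a separate linear axis from 0 in each panel. Slc3a2 and Slc7a5 lie higher in every MI/RI sample, and Slc7a6, Slc7a7 and Slc7a8 lie lower.

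The neighbouring pathways were read from 10 lists with 123 genes in all, of which 107 were tested, 51 of them called higher and 6 lower. Among the 100 genes with a mean of at least 0.5 FPKM in both groups, 49 rose and 6 fell, with a median log2 fold change of 0.74 beside 0.29 for all genes and the background of 25.5% and 7.36% called. Without the mitochondrial mRNAs 17 of the 107 were higher and 18 lower, beside 793 and 2857 of all 10942 genes. The balance of higher and lower calls thus depended on the scaling, in the lists and over all genes. These counts over all genes are the background for each list count given below without the mitochondrial mRNAs. Under quantile normalization the background is 1441 genes higher and 1559 lower. The genes named from the lists are given with their log2 fold changes, and where no alternative is mentioned the call held in every alternative that tested the gene.

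Among 11 tested genes of iron transport 5 were higher and 1 lower, and 1 and 2 without the mitochondrial mRNAs. Lcn2, lipocalin 2, which binds iron-loaded siderophores and is made by neutrophils and stressed epithelium, rose from 7.02 ± 3.24 to 28.7 ± 6.28 FPKM (2.10, SE 0.34, limma, adjusted p = 0.00367), beside the higher neutrophil and monocyte marker sums. Its receptor gene Slc22a17 had a change of 0.996 (limma, adjusted p = 0.0148), lost without sham replicate 3 (0.80 to 1.11 over the fits leaving out a sample) and without the mitochondrial mRNAs. Slc11a2, the ferrous iron carrier DMT1, rose from 1.19 ± 0.271 to 3.25 ± 0.662 FPKM (1.38, SE 0.25, limma, adjusted p = 0.00520), a call lost only without the mitochondrial mRNAs (0.63). Heph, the ferroxidase hephaestin that works beside ferroportin, fell from 3.66 ± 0.930 to 1.98 ± 0.335 FPKM (-0.84, SE 0.26, limma, adjusted p = 0.0315), and its call was lost without sham replicate 2 or 3 or MI/RI replicate 2 or 3 (-1.02 to -0.66), as TPM and with no filter. Of 5 tested genes of iron storage and sensing, 1 was higher and 0 lower (median 0.22), and 0 and 2 without the mitochondrial mRNAs. The higher one was Pcbp1, a chaperone that hands iron to ferritin, at 14.0 ± 0.974 FPKM in sham and 30.5 ± 5.67 FPKM in MI/RI (1.11, SE 0.23, limma, adjusted p = 0.00727), lost under quantile normalization (0.29) and without the mitochondrial mRNAs (0.33).

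Heme metabolism had 7 genes higher and 1 lower among 17 tested (median 0.65), but 1 and 3 without the mitochondrial mRNAs (median -0.04) and 1 and 1 under quantile normalization. Alas1, the rate-limiting enzyme of heme synthesis outside the red cell line, was at 3.21, 2.75 and 2.07 FPKM in sham and at 59.0, 28.5 and 29.2 FPKM in MI/RI. It had the largest change of the list at 3.75 (SE 0.32, limma, adjusted p = 0.000314), and its lowest MI/RI value was far above its highest sham value. Synthesis (Alas1) and breakdown (Hmox1) genes of heme were therefore both higher in the same samples, with the order of the MI/RI samples differing: replicate 1 was the highest for Alas1 and the lowest for Hmox1. Blvrb, a biliverdin reductase, had a change of 1.22 (SE 0.27, limma, adjusted p = 0.00962), lost under quantile normalization (0.61) and without the mitochondrial mRNAs (0.44). Cd163, the macrophage receptor that clears hemoglobin bound to haptoglobin, fell from 2.66 ± 0.796 to 0.935 ± 0.0833 FPKM (-1.38, SE 0.26, limma, adjusted p = 0.00567). The summed macrophage markers were higher with the FPKM as deposited. Those markers did not move together: of 7, 2 were called higher and 1 lower. The lower one, Mrc1, named here after its values were seen, went from a mean of 4.19 FPKM in sham to 2.47 FPKM in MI/RI, and was not called as TPM. Without the mitochondrial mRNAs 0 of the 7 markers were higher and 1 lower (median log2 fold change -0.41), beside 793 and 2857 of all 10942 genes. Under quantile normalization 1 was higher and 1 lower (median -0.06), beside 1441 and 1559 of all genes.

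Mitochondrial iron and iron-sulfur cluster genes had 10 of 16 higher and 0 lower. Bola3, which helps to deliver clusters to lipoate-making enzymes, was at 15.3, 5.69 and 4.37 FPKM in sham and 59.3, 41.3 and 36.4 FPKM in MI/RI (2.60, SE 0.42, limma, adjusted p = 0.00366). Cisd1, the outer membrane cluster protein mitoNEET, rose by 1.83 (SE 0.34, limma, adjusted p = 0.00523) and Glrx5, a glutaredoxin of cluster transfer, by 1.59 (SE 0.28, limma, adjusted p = 0.00449). In all 3 genes sham replicate 1 was the highest sham sample and MI/RI replicate 1 the highest of its group, as it was for the cardiomyocyte markers. Without the mitochondrial mRNAs the list had 5 genes higher and 2 lower.

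The genes around GPX4 were grouped by their step. In glutathione and cysteine metabolism 2 of the 6 genes at 0.5 FPKM or more in both groups were higher and 0 lower (1 and 1 of all 8 tested without the mitochondrial mRNAs). Chac1, which degrades glutathione, was at 0.0274 ± 0.00243 FPKM in sham and 1.22 ± 0.679 FPKM in MI/RI, and is left out of this count because it passed the filter through its MI/RI values alone. Gclc, the catalytic subunit of the first enzyme of glutathione synthesis, rose by 1.26 (SE 0.29, limma, adjusted p = 0.0115), lost without the mitochondrial mRNAs, and Ggct, of the gamma-glutamyl cycle, had a change of 0.73 (SE 0.21, limma, adjusted p = 0.0266). The Ggct call was lost without sham replicate 2 or 3 or MI/RI replicate 2 or 3 (0.65 to 0.82) and under median centring and quantile normalization, and its value was -0.0455 without the mitochondrial mRNAs. In lipid peroxidation 8 of 15 were higher and 0 lower (3 and 2 without the mitochondrial mRNAs), led by Pebp1, a scaffold that directs 15-lipoxygenase to phospholipids (1.93, SE 0.36, limma, adjusted p = 0.00530), Fads2, a desaturase of polyunsaturated fatty acids (1.87, SE 0.30, limma, adjusted p = 0.00351), and Por, the electron donor of cytochrome P450 enzymes (1.35, SE 0.26, limma, adjusted p = 0.00614), whose call was lost under quantile normalization and without the mitochondrial mRNAs. Ptgs2, often read as a marker of ferroptosis and named here after its values were seen, was under the filter at 0.0108, 0.0595 and 0.0905 FPKM in sham and 0.787, 0.896 and 0.926 FPKM in MI/RI.

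In defence that does not need GPX4, 3 of 11 were higher and 0 lower, near the background of 25.5%, and 2 and 1 without the mitochondrial mRNAs. Txnrd1, the selenoprotein thioredoxin reductase 1, rose by 1.69 (SE 0.30, limma, adjusted p = 0.00448) and Prdx6, a peroxiredoxin that reduces phospholipid peroxides, by 1.65 (SE 0.34, limma, adjusted p = 0.00768). Nqo1, a quinone reductase and common NRF2 target, rose by 1.33 (SE 0.30, limma, adjusted p = 0.00995), lost without the mitochondrial mRNAs. Regulators of ferroptosis had 9 of 11 higher and 0 lower (median 1.28), 3 and 0 without the mitochondrial mRNAs, and 4 and 0 under quantile normalization. Atf3, a stress transcription factor, was at 1.68, 1.25 and 1.62 FPKM in sham and 54.4, 59.5 and 19.1 FPKM in MI/RI (4.63, SE 0.40, limma, adjusted p = 0.000324). Hspb1, which encodes Hsp27, rose by 2.18 (SE 0.28, limma, adjusted p = 0.00220), and Trib3, a pseudokinase of the ATF4 response, by 1.53 (SE 0.43, limma, adjusted p = 0.0240). The Trib3 call was lost without sham replicate 1 or 2 or MI/RI replicate 2, its highest sample at 3.55 FPKM (1.02 to 1.85), and with median centring, no filter or no mitochondrial mRNAs.

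Selenoprotein synthesis, on which GPX4 depends for its selenocysteine, was the only one of the 10 lists with more genes lower than higher on the FPKM as deposited, 3 and 1 of 6 tested (median -0.52). Trit1, which modifies the selenocysteine tRNA among others, was at 4.71, 5.37 and 5.02 FPKM in sham and 2.71, 2.76 and 2.45 FPKM in MI/RI, and fell by 0.91 on the log2 scale (SE 0.20, limma, adjusted p = 0.00995). Secisbp2, which recruits the decoding machinery to selenoprotein mRNAs, had a log2 fold change of -0.73 (SE 0.22, limma, adjusted p = 0.0299), lost without sham replicate 2 or 3 or MI/RI replicate 2 or 3 (-0.82 to -0.63), as TPM and with no filter. Sepsecs, which makes the selenocysteine tRNA, had one of -0.69 (SE 0.24, limma, adjusted p = 0.0494), lost whichever sample was left out (-0.79 to -0.59), with the replicate number as a block, as TPM, with no filter and with a pseudocount of 1. Eefsec, the selenocysteine elongation factor, had one of 0.93 (SE 0.30, limma, adjusted p = 0.0375), lost without sham replicate 2 or 3 or MI/RI replicate 1 or 3 (0.71 to 1.14), with no filter, and under each scaling other than TPM. Between the groups, the FPKM of Gpx4 and Txnrd1 were higher in MI/RI and those of Trit1 lower. The Gpx4 call was lost under median centring, under quantile normalization and without the mitochondrial mRNAs. Within the groups the orders were mixed. In MI/RI, replicate 3 was the lowest both for Trit1 (2.45 FPKM) and for Txnrd1 (7.01 FPKM). Replicate 2 was the highest for Trit1 (2.76 FPKM) and the lowest for Gpx4 (283.05 FPKM, with replicate 3 at 283.15 FPKM). In sham, replicate 1 was the highest for Gpx4 (202 FPKM) and the lowest for Trit1 (4.71 FPKM), while replicate 2 was the highest for both Trit1 (5.37 FPKM) and Txnrd1 (3.98 FPKM). A link between these genes was not tested.

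**Figure D4:**
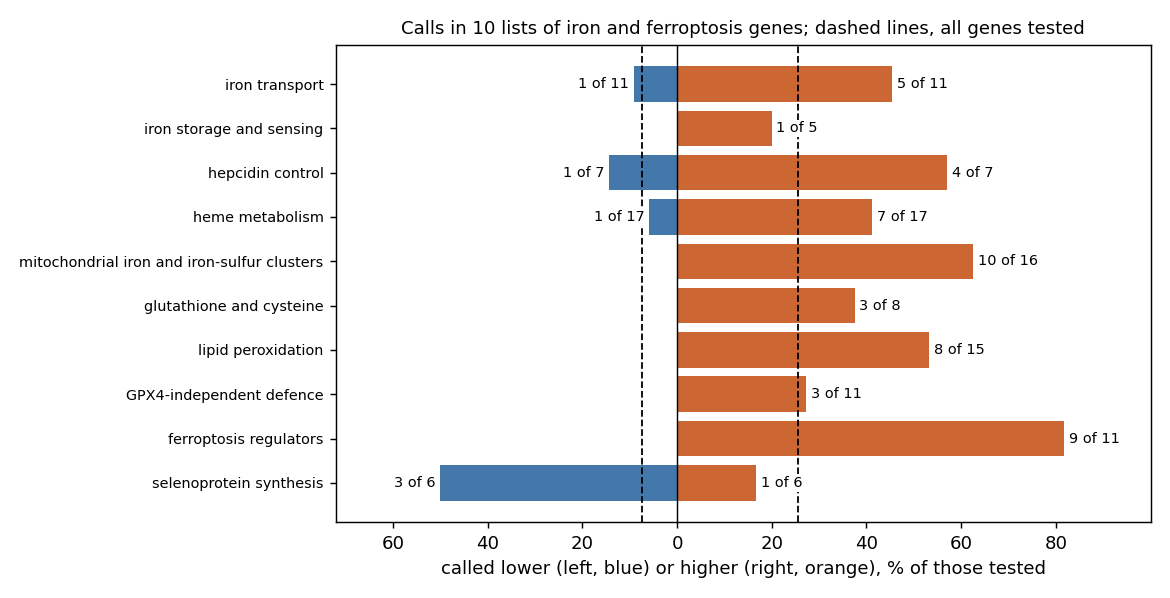
Share of the tested genes of each list that limma called lower (left, blue) or higher (right, orange) in MI/RI, with the count beside each bar (Il6 and Chac1, which passed the filter through MI/RI alone, included); dashed lines mark the shares over all genes tested, 7.36% and 25.5%. With the FPKM as deposited, 8 lists lie above the background of higher calls and selenoprotein synthesis has 3 of 6 genes lower. Without the mitochondrial mRNAs the lists together have 17 genes higher and 18 lower, beside 793 and 2857 of all 10942 genes tested.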

How the data were processed

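Total RNA of 3 sham and 3 MI/RI samples of rat myocardium was sequenced from stranded libraries. The authors deposited 1 table of FPKM values with a column per sample. The submitters' processing notes name STAR and HTSeq; their settings, the genome build and the annotation are not given in the sources used here, so no coordinates of the table's genes are printed. FPKM do not give the number of fragments. In 83.6% of 2552 genes with a mean under 0.05 FPKM the values moved in whole steps (tolerance 1%), which gave depths of 0.873 to 1.18 relative to sham replicate 1, and a gene near 0 FPKM cannot be told apart from counting noise. Summed FPKM was 894902 to 928941 in sham and 731063 to 825490 in MI/RI. Spearman correlations of all samples were 0.928 to 0.952 within sham, 0.938 to 0.962 within MI/RI and 0.791 to 0.900 between them.

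Rows sharing a symbol were summed (30452 rows, 7092 without a symbol, giving 28293 genes). Log2(FPKM + 0.1) of the 10942 genes with a mean of at least 0.5 FPKM was tested with limma 3.58.1 in R 4.3.3 (lmFit, eBayes with trend, no covariate), with Benjamini-Hochberg adjustment and a threshold of 0.05. Fold changes on this scale understate the change of low genes. For ratios of genes within a library, an exact permutation test was used (two-sided, smallest possible p 0.1). Ratios with Slc40a1 or Slc7a11 could not be formed. On simulated data with 10942 genes, the fit made 138 calls, of which 134 were among the 200 genes moved by 2 on the log2 scale and 4 were false.

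The genes and lists were chosen with earlier results of these data known. Named genes are the 10 members, Hmox2, and in each list the genes past the threshold, at most the 3 with the largest log2 fold change in each direction; exceptions are stated where they occur. A gene that the rule names in the heme list is not reported here. The deviations of same-numbered samples had correlations of 0.203, 0.117 and 0.118, but sham replicate 3 correlated as much with MI/RI replicate 2 (0.120). The labels name no shared litter or day, and the main fit did not pair the samples. A fit with the replicate number as a block was made as an alternative. The other alternatives were pseudocounts of 1 and 0.01, no filter, a filter at 5 FPKM, TPM, median centring, quantile normalization, rescaling without the 13 mitochondrial mRNAs, no trend, the highest row per symbol, and leaving out each sample. Promoters were taken from a RefSeq table of GRCr8; no protein sequence was used here.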

Additional observations from a re-analysis of the deposited data

How the results depend on the processing

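The scaling bore most on the results. Quantile normalization and rescaling without mitochondrial mRNAs gave 1441 and 793 genes higher (2790 as reported), 2 and 1 of the followed genes higher (6 as reported), and 25 and 17 genes of the other lists higher (51 as reported). Genes called lower numbered 504 as TPM, 166 with a filter at 5 FPKM, 1554 with median centring, 1559 with quantile normalization and 2857 without mitochondrial mRNAs (805 as reported), and those of the other lists 3, 0, 10, 14 and 18, and 2 with no filter (6 as reported). Of all calls, 77.6% were higher as reported, 87.3% as TPM, 91.9% with the filter at 5 FPKM, 56.5% with median centring, 48.0% with quantile normalization and 21.7% without mitochondrial mRNAs. The sign turned for Fth1 under quantile normalization (-0.41), for Ftl1 under quantile normalization (-0.51) and without mitochondrial mRNAs (-0.24), and for Ggct without mitochondrial mRNAs (-0.0455). Leaving out 1 sample gave 1528 to 2557 genes higher and 309 to 881 lower, 3 to 6 followed genes higher, and 33 to 47 and 2 to 6 genes of the other lists higher and lower. With the replicate number as a block, 3085 genes were higher and 895 lower, 6 followed genes were higher, and among the named genes only the Sepsecs call was lost. Of the followed genes' values under all alternatives, 111 kept direction and side of the threshold, 19 lost the call, 1 gained it and 3 turned sign; of the other named genes' values, 519 kept both, 75 lost the call and 1 turned sign. The causes were not tested. Slc7a11 was listed at 0 in 5 libraries, so no difference was detectable for it, and the reason for these values was not tested.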
